A study of Mus musculus with 12 samples.

Results

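Myl2, Tnnt2, Tnni3, Ttn, Pln, Nppa and Smpx are genes of heart and striated muscle that were looked up by symbol, through their mouse Ensembl identifiers, in RNA sequencing counts from embryonic mouse lung. All 7 were found among the 31078 genes of the count table as used here, and 5 of them had enough reads to be tested. The lungs were taken at embryonic day 12.5 (strain C57BL/6) from natural matings of mice that carried a knockout allele of Intu, a planar cell polarity effector gene needed for primary cilia. The left and the right lung were sequenced as separate libraries. There were 3 wild-type left (wt left), 3 wild-type right (wt right), 3 Intu knockout left (IntuKO left) and 3 Intu knockout right (IntuKO right) libraries, 12 in all, and the libraries of each group carry the numbers 1 to 3. The labels name the genotype of each group and no Cre driver, treatment or pooling of embryos. Whether each library of a group is a different embryo is not stated, and the p-values therefore describe the spread among these 12 libraries, some of which could be technical.

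In the sarcomere, thick filaments of myosin pull on thin filaments of actin when calcium binds the troponin complex. Myl2, a regulatory light chain of myosin, marks ventricular and slow skeletal muscle, whereas Nppa, which encodes atrial natriuretic peptide, is a classic marker of atrial muscle and of the embryonic trabecular heart. Tnnt2 and Tnni3 encode the cardiac forms of troponin T and troponin I, Ttn encodes the giant elastic protein titin, Pln encodes phospholamban, the inhibitor of the calcium pump of the sarcoplasmic reticulum, and Smpx encodes a small protein of the costameres of striated muscle. In the mouse, heart muscle also forms a sleeve around the pulmonary veins that reaches into the lung, and the lung lies against the heart in the embryo. In a bulk library, fewer muscle cells and less RNA per muscle cell cannot be told apart.

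Library totals were 10290103 to 10753386 counts, which is only part of each library because the table covers chromosomes 1 to 7, 10, X and part of 8. Levels below are normalised CPM, the reads of a gene divided by the scaled depth of its library. The 6 lung epithelium and mesenchyme markers of the table summed to between 872 and 993 CPM in all 12 libraries, and the 7 members to between 27.5 and 51.6 CPM. Intu itself was at 28.2 to 34.0 CPM in wild type and 26.2 to 31.4 CPM in the knockout (log2 difference -0.16, SE 0.06, adjusted p = 0.162 in edgeR's quasi-likelihood test with Benjamini-Hochberg adjustment). The labels do not say which exons the allele removes, so a count over the whole gene does not check the genotype. Xist, the X-inactivation RNA, ran from 1271 to 2269 CPM in wild type and from 107 to 985 CPM in the knockout (log2 difference -1.83, SE 0.47, adjusted p = 0.0357 in the same test), and the labels give no sex.

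**Figure D1:**
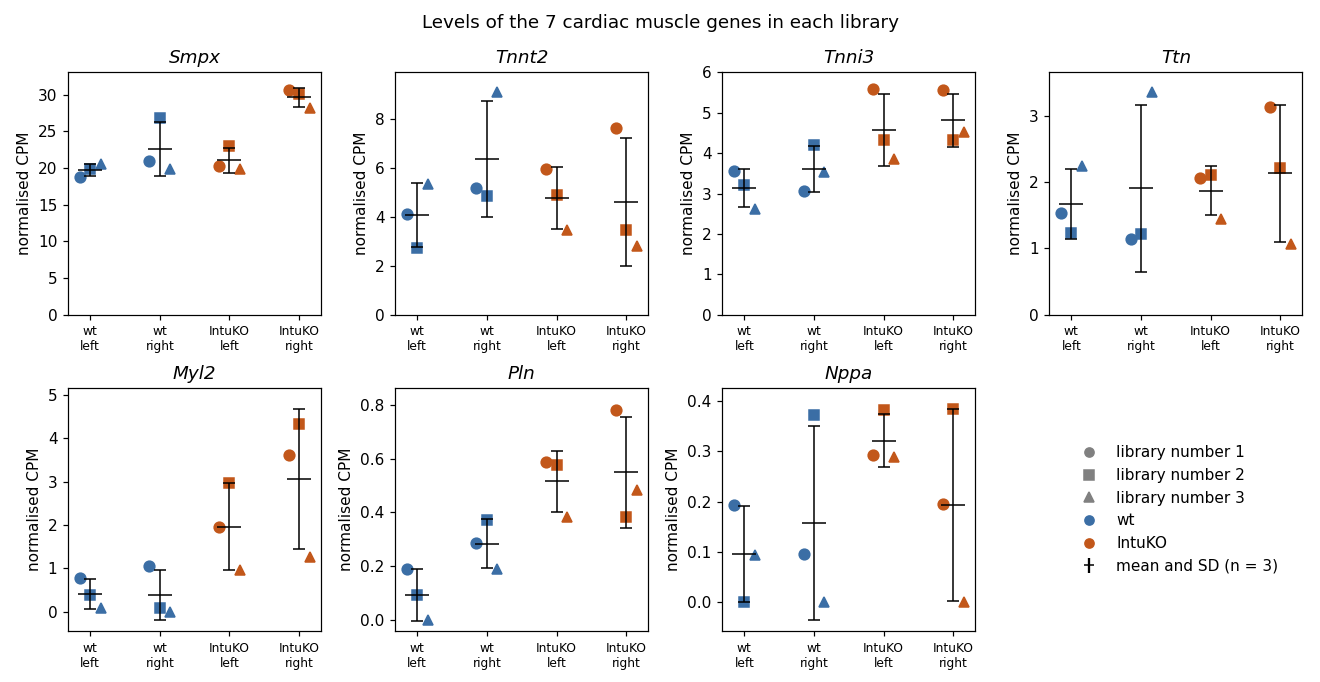
Normalised CPM (vertical axes, 1 panel per gene) of the 7 genes in wt left, wt right, IntuKO left and IntuKO right libraries. Symbols stand for the library number, and the bar is the mean with the SD of 3 libraries. Smpx lies at 18.8 to 30.7 CPM, Pln and Nppa lie under 1 CPM, and the Myl2 points of the knockout lie above those of wild type on each side.

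The members differed widely in level. Per kilobase of annotated exon, mean levels over the 4 groups ranged from 8.68 to 13.0 CPM for Smpx and from 1.52 to 2.33 CPM for Tnni3. Tnnt2 followed at 0.525 to 0.821 CPM per kilobase and Myl2 at 0.196 to 1.57 CPM per kilobase. Nppa reached 0.110 to 0.372, Pln 0.0346 to 0.199 and Ttn 0.0142 to 0.0182 CPM per kilobase. The exon model of Ttn covers 117334 bases, so its per-kilobase level is low although its read count is not the lowest.

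Of the 5 members tested, Myl2 was the 1 member that differed between genotypes when both sides were averaged, and it was higher in the knockout. Myl2 passed the filter on low counts (minimum count 10) only through its knockout libraries. In wild type only wt right 1, at 11 counts, was above 10. The call is thus on a gene kept through the group where it was high. The test called 5.7% of all 9519 tested genes between genotypes over both sides (543 genes, 198 higher and 345 lower in the knockout). It treated the left and right library of a number as independent. With their counts summed, 3 against 3, Myl2 was not called (edgeR adjusted p = 0.131). The 5 tested members had a median log2 difference of 0.24, beside 0.0036 over all tested genes. In left lungs alone edgeR called none of the 5, where 1.18% of tested genes were, and 1037 tested genes had an unadjusted p under 0.05. In right lungs alone edgeR called none of them, where 1.51% of tested genes were, and 1285 tested genes had an unadjusted p under 0.05.

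The groups can also be compared by whether their libraries overlap, for all 7 members. On the left, 4 of 7 members did not overlap between genotypes, namely Myl2, Tnni3, Pln and Nppa, each higher in the knockout, where 15.3% of tested genes did not overlap in either direction. On the right, 4 of 7 did not overlap, namely Myl2, Tnni3, Pln and Smpx, again each higher in the knockout, where 18.2% of tested genes did not overlap. For Tnni3 and Pln the right-lung groups met at equal raw counts (45 and 4 reads in number 2 of each genotype) and were apart only after scaling by depth. Over the 6 libraries of each genotype, only Pln of the 7 did not overlap, where 4.02% of tested genes did not. Pln and Nppa had too few reads to be among the tested genes.

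**Figure D2:**
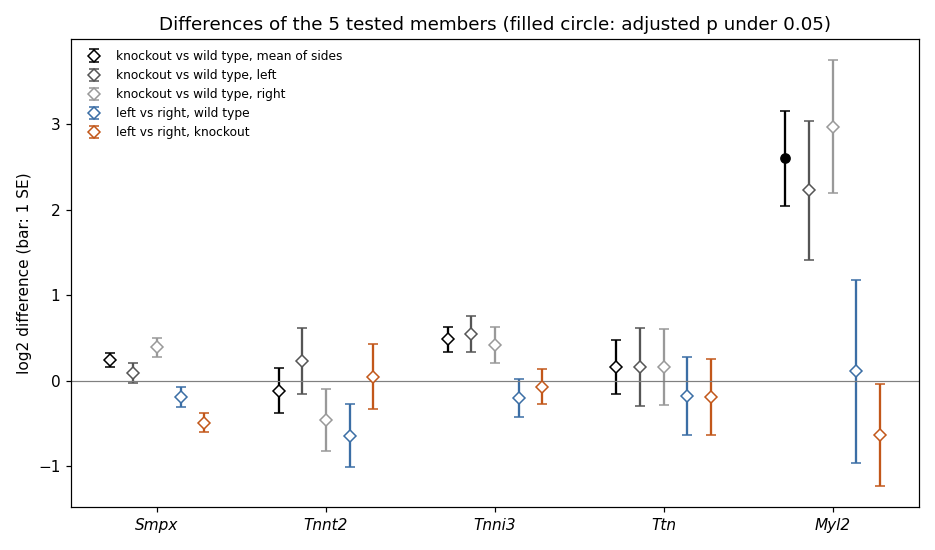
Log2 differences (vertical axis, bars of 1 SE) of the 5 tested genes in 5 comparisons, with a filled circle where the adjusted p was under 0.05. Only the Myl2 difference of 2.60 between genotypes over both sides is filled, and the left against right difference of Smpx in the knockout lies at -0.49.

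Myl2 (chromosome 5, 122100951 to 122113472, plus strand, GRCm38, protein coding) had few reads in wild type and more in the knockout. The wt left libraries 1 to 3 held 8, 4 and 1 counts, and the wt right libraries held 11, 1 and 0. The count of 0 allows up to 0.285 CPM in that library. The IntuKO left libraries held 20, 31 and 10 counts, and the IntuKO right libraries 37, 45 and 13. On each side every knockout library was above every wild-type library, while over both sides wt right 1, at 11 counts, was above IntuKO left 3, at 10. In both genotypes the 3 numbers ranked alike on both sides, with number 3 lowest.

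The mean level of Myl2 was 0.413 ± 0.339 CPM (SD, n = 3) in wt left and 0.381 ± 0.582 in wt right. It was 1.96 ± 1.00 CPM in IntuKO left and 3.06 ± 1.61 in IntuKO right. The order from lowest to highest was wt right, wt left, IntuKO left, IntuKO right, and neither the 2 wild-type groups nor the 2 knockout groups differed from each other beyond their spread. Over both sides the log2 difference between knockout and wild type was 2.60 (SE 0.56, adjusted p = 0.0143 in edgeR's quasi-likelihood test with Benjamini-Hochberg adjustment). On the left it was 2.23 (SE 0.81, adjusted p = 0.296 in the same edgeR test) and on the right 2.97 (SE 0.78, adjusted p = 0.0854). DESeq2 gave a right-lung difference of 3.01 (SE 0.81, adjusted p = 0.0136). With no filter on low counts, edgeR called Myl2 on each side, at 2.22 (SE 0.44, adjusted p = 5.86e-05) on the left and 2.97 (SE 0.43, adjusted p = 6.74e-10) on the right. The differences were almost those of the main fit, so these smaller p-values come from a smaller estimate of the spread. The interaction of genotype and side was -0.75 (SE 1.25, adjusted p = 1.00 in edgeR), so no difference in the effect between sides was detectable.

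The call on Myl2 over both sides held in DESeq2 (adjusted p = 0.000243) and in limma-voom with left and right paired (3.08, adjusted p = 0.0178). It did not hold without certain pairs of libraries. Leaving out both libraries of wild-type number 2 gave 2.34 (edgeR adjusted p = 0.0908), and leaving out both of knockout number 2 gave 2.22 (edgeR adjusted p = 0.0601). Leaving out both libraries of wild-type number 1, which held the most Myl2 counts in wild type, gave 4.35, and on the right alone 5.70 without wt right 1 (edgeR adjusted p = 0.0297). The main test treated the left and right library of a number as independent. With the left and right counts of a number summed, 3 against 3, the difference was 2.65 (SE 0.69, edgeR adjusted p = 0.131). Of its exon bases 3.08% are shared with Ccdc63 on the opposite strand, which had at most 5 counts in any library.

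Tnnt2 (chromosome 1, 135836354 to 135852260, plus strand) did not follow Myl2. The wt left libraries held 43, 29 and 57 counts, the wt right libraries 54, 52 and 95, the IntuKO left libraries 61, 51 and 36 and the IntuKO right libraries 78, 36 and 29. The highest library was wt right 3 and the lowest were wt left 2 and IntuKO right 3, so the groups overlapped throughout. Mean levels were 4.07 ± 1.30 CPM (SD, n = 3) in wt left, 4.62 ± 2.61 in IntuKO right, 4.77 ± 1.25 in IntuKO left and 6.37 ± 2.36 in wt right, and no neighbours in that order differed beyond their spread. The log2 difference between knockout and wild type over both sides was -0.12 (SE 0.27, edgeR adjusted p = 0.858). On the left it was 0.23 (SE 0.38) and on the right -0.46 (SE 0.37), with edgeR adjusted p of 0.907 and 0.663.

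Ttn (chromosome 2, 76703980 to 76982547, minus strand) ran with Tnnt2. Its counts were 16, 13 and 24 in wt left, 12, 13 and 35 in wt right, 21, 22 and 15 in IntuKO left and 32, 23 and 11 in IntuKO right. Again wt right 3 was highest and IntuKO right 3 lowest, and the groups overlapped. Mean levels ran from 1.67 ± 0.52 CPM in wt left through 1.87 ± 0.37 in IntuKO left and 1.90 ± 1.25 in wt right to 2.13 ± 1.03 in IntuKO right (SD, n = 3 each), all within each other's spread. Between genotypes, over both sides, it differed by 0.16 on the log2 scale (SE 0.32, edgeR adjusted p = 0.834). Across the 12 libraries, which share side, genotype and number, the log2 CPM of Tnnt2 and Ttn correlated at r = 0.75, and at 0.89 after each library was taken as its deviation from its group's mean.

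**Figure D3:**
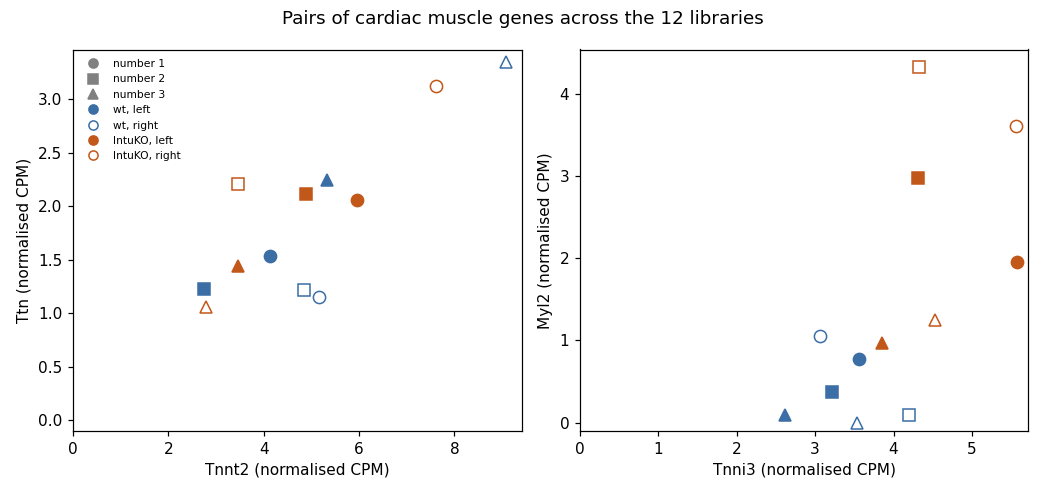
Normalised CPM of Ttn against Tnnt2 (left) and of Myl2 against Tnni3 (right) in the 12 libraries, with wild type in blue, knockout in orange, filled symbols for left and open symbols for right. Tnnt2 and Ttn rise together with wt right 3 and IntuKO right 1 at the top, whereas the high Myl2 values belong to knockout libraries.

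The sequences before the start of Tnnt2 and of Ttn are shown because these members varied together. They are taken from RefSeq on GRCm38.p6, 250 bases before to 50 after the annotated start, at chr1:135836084-135836383 on the plus strand and chr2:76982498-76982797 on the minus strand. Capitals mark 6 searched motifs wherever they match on either strand. The GATA core was spelled as AGATAA and also as TGATAA. The M-CAT element was spelled as CATTCC, and the TATA box was spelled as TATAAA. The CArG box and the MEF2 site were searched as well.
Tnnt2: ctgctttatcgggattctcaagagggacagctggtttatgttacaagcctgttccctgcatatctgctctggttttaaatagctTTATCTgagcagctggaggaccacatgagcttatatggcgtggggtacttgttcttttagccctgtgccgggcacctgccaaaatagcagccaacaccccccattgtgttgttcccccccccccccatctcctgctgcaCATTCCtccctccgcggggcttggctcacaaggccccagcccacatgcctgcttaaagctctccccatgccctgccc
Ttn: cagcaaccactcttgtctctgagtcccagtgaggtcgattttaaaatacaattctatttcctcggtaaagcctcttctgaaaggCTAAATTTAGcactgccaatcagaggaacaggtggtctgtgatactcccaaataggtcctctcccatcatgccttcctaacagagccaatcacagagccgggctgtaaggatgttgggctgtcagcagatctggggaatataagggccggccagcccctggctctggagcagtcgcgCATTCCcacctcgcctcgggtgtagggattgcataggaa
E-boxes (CANNTG, in 72.3% of windows) and the NKX core (AAGTG, in 46.3%) were searched too and are not in capitals. Both windows held an E-box. Among the motifs in capitals, both held CATTCC, the M-CAT element bound by TEAD factors. It stood at 27 to 22 bases before the start in Tnnt2 and 12 to 17 bases after it in Ttn, and 14.6% of the 32544 RefSeq promoter windows of this length held it. Tnnt2 also held AGATAA on the opposite strand (11.2% of windows), and Ttn held a MEF2 site 166 to 157 bases before its start (3.16% of windows). A match is a description of the letters. Tnnt2's second RefSeq window held none of the marked motifs, and its first starts 20 bases upstream of the nearest coding start in GENCODE.

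Tnni3 (chromosome 7, 4518305 to 4524229, minus strand) was higher in the knockout libraries on each side, without passing the test. Its counts were 37, 34 and 28 in wt left, 32, 45 and 37 in wt right, 57, 45 and 40 in IntuKO left and 57, 45 and 47 in IntuKO right. Knockout number 1 was highest on both sides. In CPM the knockout ranges of 3.85 to 5.57 (left) and 4.32 to 5.57 (right) lay above the wild-type ranges of the same side, 2.62 to 3.55 and 3.06 to 4.20. Means rose in the order wt left, wt right, IntuKO left, IntuKO right, at 3.13 ± 0.47, 3.60 ± 0.57, 4.58 ± 0.89 and 4.81 ± 0.67 CPM (SD, n = 3 each). Between genotypes, over both sides, Tnni3 differed by 0.48 on the log2 scale (SE 0.15, edgeR adjusted p = 0.0793), and it was 0.55 (SE 0.21) on the left and 0.41 (SE 0.21) on the right, with edgeR adjusted p of 0.338 and 0.417. Of the exon bases 4.17% are shared with Dnaaf3, which had 48 to 74 counts, so some reads could belong to either gene.

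Pln (chromosome 10, 53337667 to 53345987, plus strand) had 2, 1 and 0 counts in wt left, 3, 4 and 2 in wt right, 6, 6 and 4 in IntuKO left and 8, 4 and 5 in IntuKO right. Summed over 3 libraries that is 3 counts (exact Poisson 95% interval 0.619 to 8.77), 9 (4.12 to 17.1), 16 (9.15 to 26.0) and 17 (9.90 to 27.2), intervals that cover counting error only. The highest wild-type library was at 0.373 CPM and the lowest knockout library at 0.384 CPM, so the genotypes did not overlap but almost touched. The filter on low counts removed Pln. With no filter, knockout minus wild type was 1.61 on the log2 scale (SE 0.54, edgeR adjusted p = 0.0530). Of its exon bases 64.7% are shared with genes on the opposite strand, among them Gm47644, which had 1 to 7 counts, and Cep85l, which had 521 to 661. Whether counting used strand is not given, so these counts cannot be assigned to Pln with certainty.

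Pln and Tnni3 varied together, with r = 0.91 over the 12 libraries and 0.78 on deviations from the group means. Pln was at a few reads in each library, so that value rests on sparse counts. Myl2 correlated with Pln at 0.72 and with Tnni3 at 0.64, and with Tnnt2 at -0.18. On deviations from the group means the values of Myl2 were 0.50, 0.09 and -0.02. Myl2, Tnni3 and Pln were the 3 members whose genotypes did not overlap on either side, whereas Tnnt2 and Ttn varied together within groups and overlapped between them.

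The windows before Tnni3 (chr7:4522479-4522778, minus strand) and Pln (chr10:53337436-53337735, plus strand) are shown for the second pair, with the same source and capitals.
Tnni3: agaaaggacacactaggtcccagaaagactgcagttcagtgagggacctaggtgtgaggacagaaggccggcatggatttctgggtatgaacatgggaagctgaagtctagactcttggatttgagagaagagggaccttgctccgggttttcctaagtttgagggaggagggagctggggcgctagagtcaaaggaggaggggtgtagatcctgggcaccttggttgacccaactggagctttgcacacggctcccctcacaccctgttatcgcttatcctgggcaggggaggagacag
Pln: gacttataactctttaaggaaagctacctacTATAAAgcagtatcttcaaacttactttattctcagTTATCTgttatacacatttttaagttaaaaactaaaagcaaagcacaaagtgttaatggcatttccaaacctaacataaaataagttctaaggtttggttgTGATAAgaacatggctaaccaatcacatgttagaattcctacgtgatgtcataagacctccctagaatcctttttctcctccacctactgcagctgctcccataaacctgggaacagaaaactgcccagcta
The Tnni3 window held none of the marked motifs, and that of Pln held TATAAA (13.6% of all windows) 219 to 214 bases before the start, AGATAA on the opposite strand and TGATAA (8.91%) 82 to 77 bases before the start. The pair shared no marked motif in these windows. No letters are given for Myl2, because its RefSeq starts lie 8227 and 7762 bases upstream of the nearest coding start of the gene counted here.

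Nppa (chromosome 4, 148000722 to 148002079, plus strand) was near the limit of detection in all groups. Its counts were 2, 0 and 1 in wt left, 1, 4 and 0 in wt right, 3, 4 and 3 in IntuKO left and 2, 4 and 0 in IntuKO right. Summed counts were 3, 5, 10 and 6, with exact Poisson 95% intervals of 0.619 to 8.77, 1.62 to 11.7, 4.80 to 18.4 and 2.20 to 13.1, which overlap one another. The wild-type and knockout libraries overlapped on the right and were apart on the left. With no filter, knockout minus wild type was 0.96 on the log2 scale (SE 0.70, edgeR adjusted p = 0.681). Gm13054 on the opposite strand, which had at most 3 counts, shares 61.5% of the exon bases of Nppa.

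Smpx (chromosome X, 157698910 to 157752591, plus strand) was the most abundant member. It was also the only member whose left and right libraries did not overlap, in the knockout alone and without a call in the main test. Its counts were 196, 210 and 220 in wt left, 220, 288 and 208 in wt right, 207, 240 and 207 in IntuKO left and 314, 313 and 292 in IntuKO right. In the knockout the left libraries, at 19.9 to 23.0 CPM, all lay below the right libraries, at 28.2 to 30.7 CPM. In wild type they overlapped, at 18.8 to 20.6 CPM on the left and 19.9 to 26.9 CPM on the right, where wt right 2 was the high library. No exon base of Smpx is shared with another gene.

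Left minus right, the log2 difference of Smpx in the knockout was -0.49 (SE 0.11, adjusted p = 1.00 in edgeR's quasi-likelihood test). Of all tested genes, 0% were called in that comparison, 358 had an unadjusted p under 0.05 and DESeq2 called 4, and 8.18% did not overlap between sides. With the left and right library of a number as a block the difference was again -0.49 (SE 0.09, adjusted p = 0.0149 in edgeR), and 43 genes were called, Smpx among them. The block rests on a pairing read from the data. In wild type the difference was -0.19 (SE 0.12, edgeR adjusted p = 1.00), where 0.0105% of tested genes were called and none of the 7 members had non-overlapping sides (8.56% of tested genes did). The change of the side difference with genotype was -0.30 (SE 0.16, edgeR adjusted p = 1.00), and 0% of tested genes were called for it, with 124 at an unadjusted p under 0.05 and none called in DESeq2, so the side difference was not shown to differ between genotypes.

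Between genotypes, Smpx was at 19.7 ± 0.87 CPM in wt left, 21.1 ± 1.69 in IntuKO left, 22.6 ± 3.74 in wt right and 29.6 ± 1.31 in IntuKO right (SD, n = 3 each). The lower 3 groups lay within each other's spread, and IntuKO right lay above them. The log2 difference between knockout and wild type was 0.24 (SE 0.08, edgeR adjusted p = 0.105) over both sides, 0.09 (SE 0.12, edgeR adjusted p = 0.872) on the left and 0.39 (SE 0.11, edgeR adjusted p = 0.130) on the right. Without wt right 2 it was 0.31 over both sides (edgeR adjusted p = 0.0284) and 0.53 on the right (edgeR adjusted p = 0.0395). In the other leave-out fits it was not called, with values down to 0.20 over both sides (adjusted p up to 0.312) and 0.31 on the right (up to 0.327). Smpx is X-linked, and Xist differed between the same groups. The lowest Xist levels, 107 and 118 CPM, were in the right and left libraries of knockout number 1, which held 30.7 and 20.2 CPM of Smpx. The part of Xist level in the Smpx values was not tested.

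**Figure D4:**
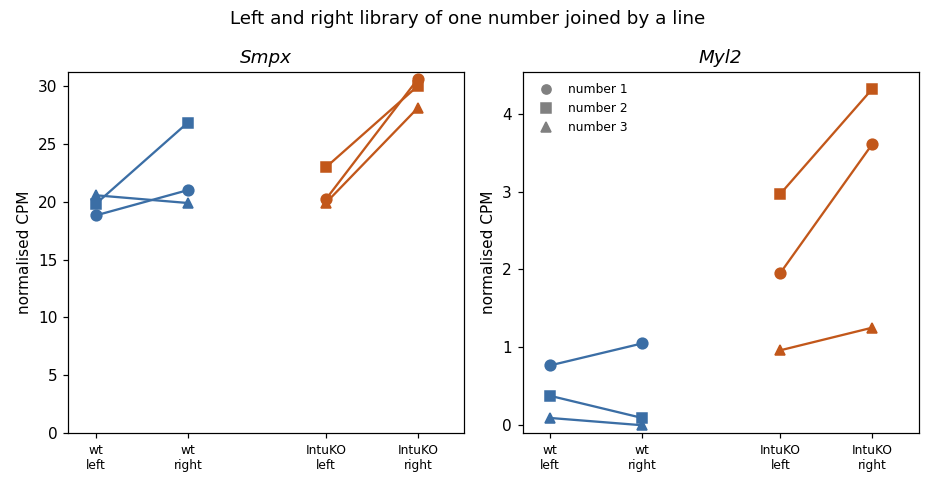
Normalised CPM of Smpx and Myl2 with the left and right library of a number joined by a line, wild type in blue and knockout in orange. In all 3 knockout numbers Smpx is higher on the right, and in wild type it is higher on the right in numbers 1 and 2.

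The window before Smpx (chrX:157698723-157699022, plus strand, RefSeq on GRCm38.p6) is shown because this member alone differed between sides in the blocked test.
Smpx: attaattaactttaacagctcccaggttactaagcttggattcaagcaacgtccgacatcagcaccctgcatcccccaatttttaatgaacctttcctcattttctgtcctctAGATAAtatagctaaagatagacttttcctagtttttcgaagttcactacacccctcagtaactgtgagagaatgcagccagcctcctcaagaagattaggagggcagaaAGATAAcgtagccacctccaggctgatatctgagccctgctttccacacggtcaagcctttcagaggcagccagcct
It held AGATAA at 137 to 132 and again at 27 to 22 bases before the start, and none of the other marked motifs.

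In the remaining side comparisons no tested member was called. In wild type the left minus right log2 differences were 0.11 for Myl2 (SE 1.07), -0.64 for Tnnt2 (SE 0.37), -0.20 for Tnni3 (SE 0.22) and -0.18 for Ttn (SE 0.46). In the knockout they were -0.64 for Myl2 (SE 0.60), 0.05 for Tnnt2 (SE 0.38), -0.07 for Tnni3 (SE 0.20) and -0.19 for Ttn (SE 0.44). DESeq2 called 11 genes between sides in wild type, no member among them.

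Other genes of the heart muscle programme moved in both directions. Of 38 further genes of the sarcomere and Z-disc, 20 were in the table and 11 were tested, of which 1 was higher and 3 lower in the knockout over both sides (median log2 difference -0.12, beside 0.0036 over all tested genes). Of all 9519 tested genes, 5.7% were called in that comparison, 198 higher and 345 lower. Actc1, the cardiac alpha-actin, which embryonic smooth muscle also expresses, fell by 1.70 on the log2 scale (SE 0.17, edgeR adjusted p = 7.0e-05), from 57.8 to 17.7 CPM. Smyd1, a muscle-specific methyltransferase, fell by 1.18 (SE 0.15, edgeR adjusted p = 0.00029), and Fhl2, a LIM-domain cofactor, fell by 0.69 (SE 0.08, edgeR adjusted p = 0.000238). Hspb7, a small heat shock protein of heart muscle, rose by 0.90 (SE 0.23, edgeR adjusted p = 0.0353), a call that 14 of 23 alternative analyses lost, among them the paired limma-voom fit (0.95, adjusted p = 0.0609).

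Other genes of that list with counts as low as those of Myl2 had means that differed in both directions. How often genes this low had a higher knockout mean over the whole table was not computed, so no trend is read from them. The genes named here were chosen after their values were seen. Between wild type and knockout, Trim55 was at 0.601 and 0.435 CPM and Lmod3 at 0.221 and 0.145 CPM. Higher in the knockout were Mypn at 0.411 and 0.452 CPM, Myl1 at 0.299 and 0.356 and Lmod2 at 0.159 and 0.370. So were Myom2 at 0.127 and 0.323 CPM, Trim63 at 0.346 and 0.661 and Myoz2 at 0.110 and 0.338. All of these were under the filter and not tested. Cavin4 was tested and had a log2 difference of -0.12 (SE 0.15, edgeR adjusted p = 0.723). Csrp3, a Z-disc LIM protein, had a log2 difference of 0.45 (SE 0.41, edgeR adjusted p = 0.597). Mybpc3, the cardiac myosin-binding protein C, had 4, 0 and 13 counts in wt left, 6, 4 and 18 in wt right, 23, 31 and 14 in IntuKO left and 23, 20 and 9 in IntuKO right, a log2 difference of 1.46 (SE 0.49, edgeR adjusted p = 0.102). Without wt left 3 it was 2.18 (edgeR adjusted p = 0.0350), and without both libraries of wild-type number 3 it was 2.62 (edgeR adjusted p = 0.0106). With no filter edgeR called Mybpc3 as well, at the same 1.46 with a smaller SE of 0.29 (adjusted p = 2.46e-05). The other 20 of 23 alternatives left it uncalled, and with libraries left out the difference went down to 0.99 and the edgeR adjusted p up to 0.296. Xirp2, a protein of the intercalated disc and Z-disc, had 0 counts in all 6 wild-type libraries, which allows up to 0.279 to 0.289 CPM per library, and 1 to 6 counts in the 6 knockout libraries. Its levels in the knockout, 0.096 to 0.575 CPM, lie partly under that limit.

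The counts of calls in this paragraph stand beside the 5.7% of all tested genes called in either direction. With so few genes tested per list, 1 or 2 calls are not read as a trait of a list. Of 23 calcium handling, channel and junction genes, 13 were in the table and 11 were tested, with none higher and 2 lower in the knockout (median -0.05). These were Jph2, which joins the cell membrane to the sarcoplasmic reticulum (log2 difference -0.92, SE 0.08, edgeR adjusted p = 2.65e-05), and the potassium channel gene Kcnh2 (-0.55, SE 0.09, edgeR adjusted p = 0.00245). Of 11 heart hormone, metabolic and transport genes, 8 were in the table and 5 were tested, of which 1 was higher. This was Ckm, muscle creatine kinase (1.85, SE 0.47, edgeR adjusted p = 0.0350), which also belongs to skeletal muscle. Ckm passed the filter on low counts only through knockout libraries. Its call was lost in 15 of 23 alternatives, the paired limma-voom fit among them (1.97, adjusted p = 0.0700). Nppb, which encodes the other cardiac natriuretic peptide, had 0 or 1 counts in wild-type libraries and 0 to 5 in knockout libraries. Of 17 heart transcription factor genes, 7 were in the table and 6 were tested, with none higher and 1 lower, Hand2, a factor of heart and limb development (-1.75, SE 0.27, edgeR adjusted p = 0.00134).

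**Figure D5:**
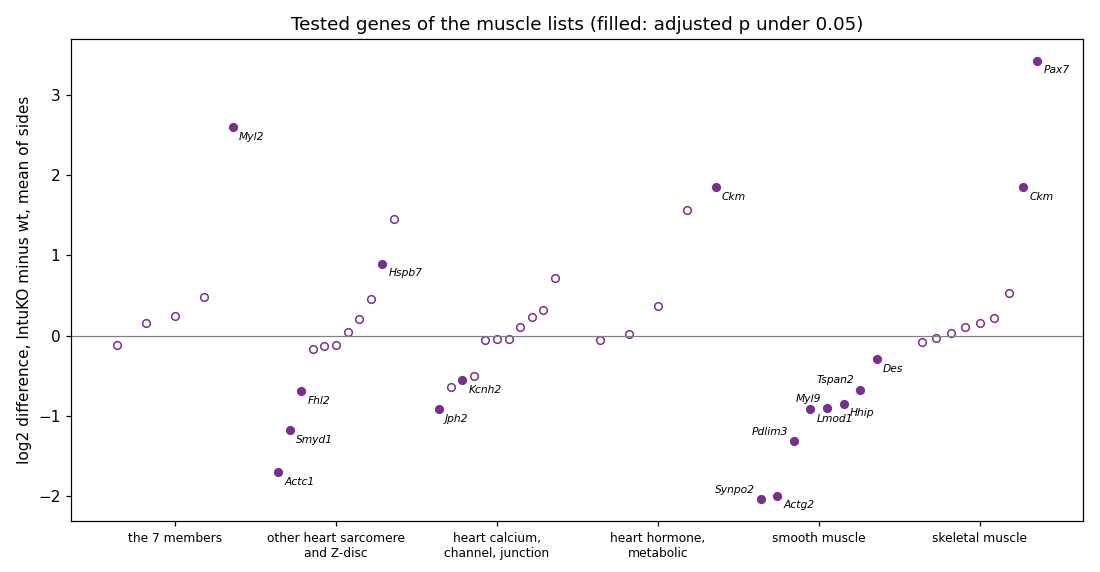
Log2 differences between knockout and wild type over both sides (vertical axis) for the tested genes of 6 muscle lists (horizontal axis), filled and named where the adjusted p was under 0.05. Myl2 at 2.60 stands above the other members, and called genes of the heart lists lie on both sides of 0. All 8 tested genes of the smooth muscle list, Hhip among them, are filled and below 0.

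Markers of chambers and of other tissues were read beside the members, where 5.7% of all tested genes were called between genotypes over both sides. Of 9 ventricular genes 4 were in the table and 3 were tested, and Myl2 was the 1 called. The other 2 tested were negative, and the median log2 difference of the 3 was -0.19. Of 13 atrial and pulmonary vein genes 8 were in the table and 4 were tested, with none called over both sides in edgeR and 1 in DESeq2. The 2 most abundant, Nr2f2 and Tbx5, are also expressed in lung mesenchyme and had log2 differences of 0.05 (SE 0.04) and 0.18 (SE 0.06, edgeR adjusted p = 0.0832). Of 24 skeletal muscle genes 20 were in the table and 9 were tested, with 2 higher in the knockout, Ckm and Pax7, the satellite cell and dermomyotome factor. Both passed the filter on low counts only through knockout libraries. No wild-type library held more than 5 counts of Ckm or 3 of Pax7. The direction of these 2 calls is therefore partly set by the filter. Pax7 had 0, 1 and 3 counts in wt left, 0, 1 and 1 in wt right, 15, 24 and 8 in IntuKO left and 6, 10 and 8 in IntuKO right (3.42, SE 0.54, edgeR adjusted p = 0.00163). The summed level of the 20 skeletal muscle genes was 26.4 to 33.7 CPM in wild type and 28.1 to 40.3 CPM in the knockout, and Chrnd was at 0 in all libraries. The part of skeletal muscle in the Myl2 counts was not tested.

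Smooth muscle stood in contrast. Of the 14 genes of this list 8 were in the table and tested. All 8 were called lower in the knockout (median -0.91), where 5.7% of all tested genes were called in either direction. Actg2 was at -2.00 (SE 0.07), Synpo2 at -2.04 (SE 0.08), Tspan2 at -0.67 (SE 0.05) and Lmod1 at -0.92 (SE 0.08), each with an edgeR adjusted p of 2.08e-05 or less. The summed level of the 8 genes was 877 to 1061 CPM in wild type and 441 to 478 CPM in the knockout. They include Hhip, a gene of the Hedgehog pathway, at 199 CPM in wt left, 207 in wt right, 118 in IntuKO left and 107 in IntuKO right. Actc1 fell in the same libraries, and the part of smooth muscle in its level was not tested. Among 4 tested mesothelium and epicardium genes Upk3b was lower (-0.32, SE 0.07, edgeR adjusted p = 0.0113), a call that 3 of 23 alternatives lost. Among 6 lung genes Elf3 was higher (0.54, SE 0.14, edgeR adjusted p = 0.0329), a call that 15 of 23 lost, the paired limma-voom fit among them (0.52, adjusted p = 0.0711). None of 7 red blood cell genes, 3 liver genes and 1 oesophagus and stomach gene tested was called in edgeR, where DESeq2 called 1 liver gene. IntuKO left 1 held 412 counts of the liver gene Alb, against 28 or fewer in each other library. Its Myl2 level of 1.96 CPM was between those of the other 2 IntuKO left libraries. The part of carried-over neighbouring tissue, heart included, in the Myl2 counts was not tested.

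For each member the 3 tested genes with a mean of at least 1 CPM whose log2 CPM correlated best over the 12 libraries were found. For Myl2 these were Rps10-ps1 (r = 0.97), Gm12816 (0.95) and Gm6560 (0.94), out of 9074 genes searched. For Tnnt2 they were Aldh1a3 (0.87), Pole3 (0.86) and Surf4 (0.86), and for Ttn they were Gm9855 (0.90), Gm12854 (0.87) and Gm6645 (0.86). For Tnni3 they included Aldh1b1 (0.92) and Fbln2 (0.88), and for Pln they were Tnni3 (0.91), Apold1 (0.91) and Aldh1b1 (0.90). For Nppa they were Spag17 (0.86), Got2-ps1 (0.84) and Klhl26 (0.79), and for Smpx they were Gm43031 (0.86), Lockd (0.84) and Gm19680 (0.83). Tnni3, for Pln, was the only member or listed heart gene among those named, and the values are the highest of all genes searched and carry no test.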

How the data were processed

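RNA was extracted from dissected lungs. The deposited values are raw counts per gene. Per the submitters' processing notes, the tools were FastQC, HISAT2 and featureCounts and the build was GRCm38. Their versions and the strand setting were not given in the sources used here. An incomplete last row was left out, and the rest of the genome was not analysed here. Symbols were matched by identifier for 99.5% of genes. Members and gene lists were chosen with earlier results of these data known. Genes were filtered with filterByExpr (minimum count 10, minimum total 15; 9519 kept), scaled by TMM (factors 0.992 to 1.01) and fitted in edgeR 4.0.16 (R 4.3.3) with glmQLFit and glmQLFTest, 4 groups and 8 residual degrees of freedom. P-values were adjusted by Benjamini-Hochberg over all tested genes, with a threshold of 0.05. The SE is the log2 difference divided by the root of the F statistic. Correlations used log2 CPM with a prior count of 2. The fit was tested on simulated data. DESeq2 1.42.0, limma 3.58.1, other filters and scalings and left-out libraries were alternatives. Named genes were the members, the called genes of each list (at most 4, by p) or else the 2 most abundant, 3 likeness genes per member, and Intu and Xist; exceptions are marked, and some named by the rule are left out here.

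For pairing, each library was taken as its deviation from its group. Same-numbered left and right libraries of a genotype correlated at 0.253 to 0.486 (6 pairs), differently numbered ones at -0.393 to -0.00284. Deviations from a group mean sum to 0, so positive values for equal numbers force negative ones for the others, which add no separate evidence. Across genotypes on the same side, equal numbers gave -0.103 to -0.0423. Equal numbers were therefore treated as left-right pairs inside each genotype in some alternatives, which the data hint at and the labels do not state. These were the replicate block within genotype, limma-voom, the summed counts and the leave-outs of both sides. The main fit had no block and treated the 12 libraries as independent. Chi-square per degree of freedom between replicates was 4.57 to 13.6, above sampling noise, so no library was counted as a duplicate.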

Additional observations from a re-analysis of the deposited data

How the results depend on the processing

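Genes called between genotypes over both sides numbered 543, of which 1 was a member. They numbered 1084 with no filter, 344 with the replicate block as a random effect in limma-voom and 139 with left and right counts summed, where 0 members were called. Leaving out libraries gave 261 to 620 genes and 0 to 2 members.

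In left lungs the 112 genes became 510 with no filter (1 member), 193 in DESeq2, 48 with only the groups compared and 24 with the replicate block across genotypes, and 48 to 87 without 1 library. In right lungs the 144 became 595 with no filter (1 member), 224 in DESeq2 (1 member) and 61 with that block, and 66 to 126 genes and 0 to 1 members without 1 library. Between sides in wild type the 1 gene became 46 with no filter, 11 in DESeq2, 8 with only the groups compared, 63 with the replicate block and 1 to 2 without 1 library. In the knockout the 0 became 31 with no filter, 4 in DESeq2, 43 with the replicate block (1 member, Smpx) and 0 to 1 without 1 library. The 0 interaction calls became 6 with no filter and 2 with the block. The causes were not tested.

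The replicate block changed the call of no member other than Smpx, and it ended the calls of Hspb7, Ckm and Elf3. No member changed sign under the other settings. Between genotypes, leaving out libraries turned Tnnt2 (-0.49 to 0.18 over both sides) and Ttn (-0.063 to 0.64 over both sides, -0.019 to 0.43 left, -0.21 to 0.85 right), none of them called. Between sides it turned Myl2 (-0.66 to 2.84) and Ttn (-0.46 to 0.50) in wild type and Tnnt2 (-0.21 to 0.61), Tnni3 (-0.23 to 0.048) and Ttn (-0.51 to 0.19) in the knockout. For the interaction it turned Myl2 (-3.48 to 0.024), Tnni3 (-0.031 to 0.34) and Ttn (-0.69 to 0.37). Counts of 0 to 45 per library limit the precision of Myl2, Ttn, Pln and Nppa.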
